A study of Arabidopsis thaliana with 40 samples.

Results

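The genes described here are 32 nuclear genes of carbon fixation and photorespiration in Arabidopsis thaliana, taken by locus identifier out of the 27416 genes counted. They were 5 genes of Rubisco and its activase, 5 of the reduction steps and 8 of the regeneration steps of the Calvin cycle, 2 CP12 regulators, and 12 enzymes of photorespiration. Shoots were profiled by Lasy-Seq, a low-input form of RNA sequencing that started here from 200 ng of total RNA per sample, in 40 libraries that form 5 groups of 8. Of the 32 genes, 31 passed the filter on low counts and were tested; the phosphoglycolate phosphatase gene PGLP1 was not.

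All plants were grown in pots of granular soil at 22 °C under 16 h of light at 110 to 140 µmol of photons per square metre per second and 8 h of dark. The start group was taken before any pretreatment, at an age of 14 days. In the water group and the ethanol group, 14-day-old plants then stood for 6 days with the base of the pot in water or in 20 mM ethanol. In the frozen water and frozen ethanol groups, plants with the same 6 days of water or ethanol went on to -4 °C overnight in a rotating incubator. The labels of these last groups also carry a time of 2 h, and whether it counts time in the cold or time back in the growth room is not said. The labels name no ecotype, no mutant and no hour of harvest, and they do not say whether a library stands for 1 plant or a pool, or whether the 8 libraries of a group came from separate plants. The p-values below therefore measure the spread between libraries, part of which may be technical.

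In the Calvin cycle, Rubisco joins CO2 to ribulose bisphosphate in the chloroplast stroma, the product is reduced with ATP and NADPH to triose phosphate, and most of the triose phosphate is used to regenerate the acceptor. Rubisco holds large subunits, encoded in the chloroplast, and small subunits, encoded by the nuclear RBCS family. Rubisco also takes O2, which yields phosphoglycolate. Photorespiration turns this back into phosphoglycerate through the chloroplast, the peroxisome and the mitochondrion, where the glycine decarboxylase complex releases CO2 and ammonia. In leaves many of these genes respond to light and to the circadian clock.

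The 250 bases before the annotated gene start are shown for RBCS1B and its tandem neighbour RBCS2B, which are near-identical copies, and for CP12-2, which was lower in both freezing comparisons under every length setting below. RBCS1B, RBCS2B and RBCS3B lie side by side on the minus strand of chromosome 5, at 15383167 to 15385320, 15380907 to 15382071 and 15376988 to 15378642, and RBCS1A lies on chromosome 1. CP12-2 lies on chromosome 3. The sequences are from the RefSeq TAIR10.1 assembly, 5′ to 3′ on the strand of the gene, and capitals mark matches on either strand to the G-box CACGTG or the I-box GATAAG, both known from light-responsive plant promoters.
RBCS1B (chr5:15385321-15385570, minus strand): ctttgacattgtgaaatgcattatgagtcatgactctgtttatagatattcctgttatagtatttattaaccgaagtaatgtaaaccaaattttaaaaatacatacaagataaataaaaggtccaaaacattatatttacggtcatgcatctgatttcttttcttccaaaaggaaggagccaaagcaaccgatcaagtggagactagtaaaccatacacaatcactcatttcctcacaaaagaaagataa
RBCS2B (chr5:15382072-15382321, minus strand): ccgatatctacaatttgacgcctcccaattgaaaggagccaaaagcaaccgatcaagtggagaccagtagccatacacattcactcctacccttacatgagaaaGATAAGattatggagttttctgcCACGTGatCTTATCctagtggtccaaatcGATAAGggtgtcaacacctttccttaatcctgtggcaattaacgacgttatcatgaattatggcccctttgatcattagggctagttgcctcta
CP12-2 (chr3:23090694-23090943, plus strand): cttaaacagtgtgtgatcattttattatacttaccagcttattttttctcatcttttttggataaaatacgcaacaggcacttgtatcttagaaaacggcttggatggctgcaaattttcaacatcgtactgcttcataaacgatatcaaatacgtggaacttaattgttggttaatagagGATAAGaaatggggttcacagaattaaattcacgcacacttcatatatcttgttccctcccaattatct
The RBCS2B window held 1 G-box, 123 bases before the gene start, and 3 I-boxes at 146, 115 and 94 bases. The CP12-2 window held 1 I-box, at 69 bases, and the window of RBCS1B held neither motif. RBCS1B has a second annotated transcript that starts 73 bases further downstream, so its window does not line up with that of RBCS2B. Counted before the most downstream annotated transcript start instead, the 250-base window of RBCS1B held 2 I-boxes and no G-box, while those of RBCS1A, RBCS2B and RBCS3B each held a G-box as well as an I-box. Over those windows the G-box was present for 9 of the 32 genes (28.1%) and for 6.68% of all annotated genes, and the I-box for 8 of 32 (25.0%) and 12.6%. Before the gene starts the same figures were 5 of 32 (15.6%) against 6.49% for the G-box and 5 of 32 (15.6%) against 12.3% for the I-box. The evening element AAAATATCT (3.12% of the 32 genes against 2.33% of all), the CCA1 site AAAAATCT (9.38% against 6.45%) and the core of the C-repeat, CCGAC (6.25% against 12.6%), were searched in the downstream windows on both strands as well. Before the gene starts the evening element was in none of the 32 windows (2.36% of all), the CCA1 site in 3.12% (6.69% of all) and the C-repeat core in 6.25% (12.0% of all), so for the first 2 of these motifs the side of the background on which the 32 genes lay depended on the window. These are matches of letters in a fixed window and not tests of binding.

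Total counts ran from 2098593 to 9211896 per library, so a floor of 3 counts stood for 1.43 to 0.326 CPM, that is counts scaled to a common library size. Levels are given below as CPM after scaling by TMM (the trimmed mean of M values), differences as log2 fold changes with their standard error (SE), and a gene is called changed when its edgeR p, adjusted over all 16579 genes tested, is under 0.05. Water replicate 6 and ethanol replicate 7 stood apart from the rest of their groups, and results that rest on them are given with and without both. Ethanol replicate 7 had the lowest total of all libraries. In single genes it was flagged less often below than frozen water replicate 7, which was left out only on its own. Summed over 4 leaf mesophyll markers, the median level was 22462, 24447 and 24156 CPM in the start, water and ethanol groups and 19168 and 19424 CPM in the frozen water and frozen ethanol groups. Summed over 6 root markers, it was 97.5 CPM in the start group and 26.3 to 36.2 CPM in the other groups; IRT1, EXPA7 and SHV2, which mark root epidermis and root hairs, had a median of 0 in every group. In the 16 libraries from frozen plants longer transcripts held relatively more of the counts than in the 24 others: the slope of counts on log2 transcript length was 0.0805 to 0.236 in the former and -0.175 to -0.0209 in the latter. Freezing results are therefore also given with that trend removed from each library.

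**Figure D1:**
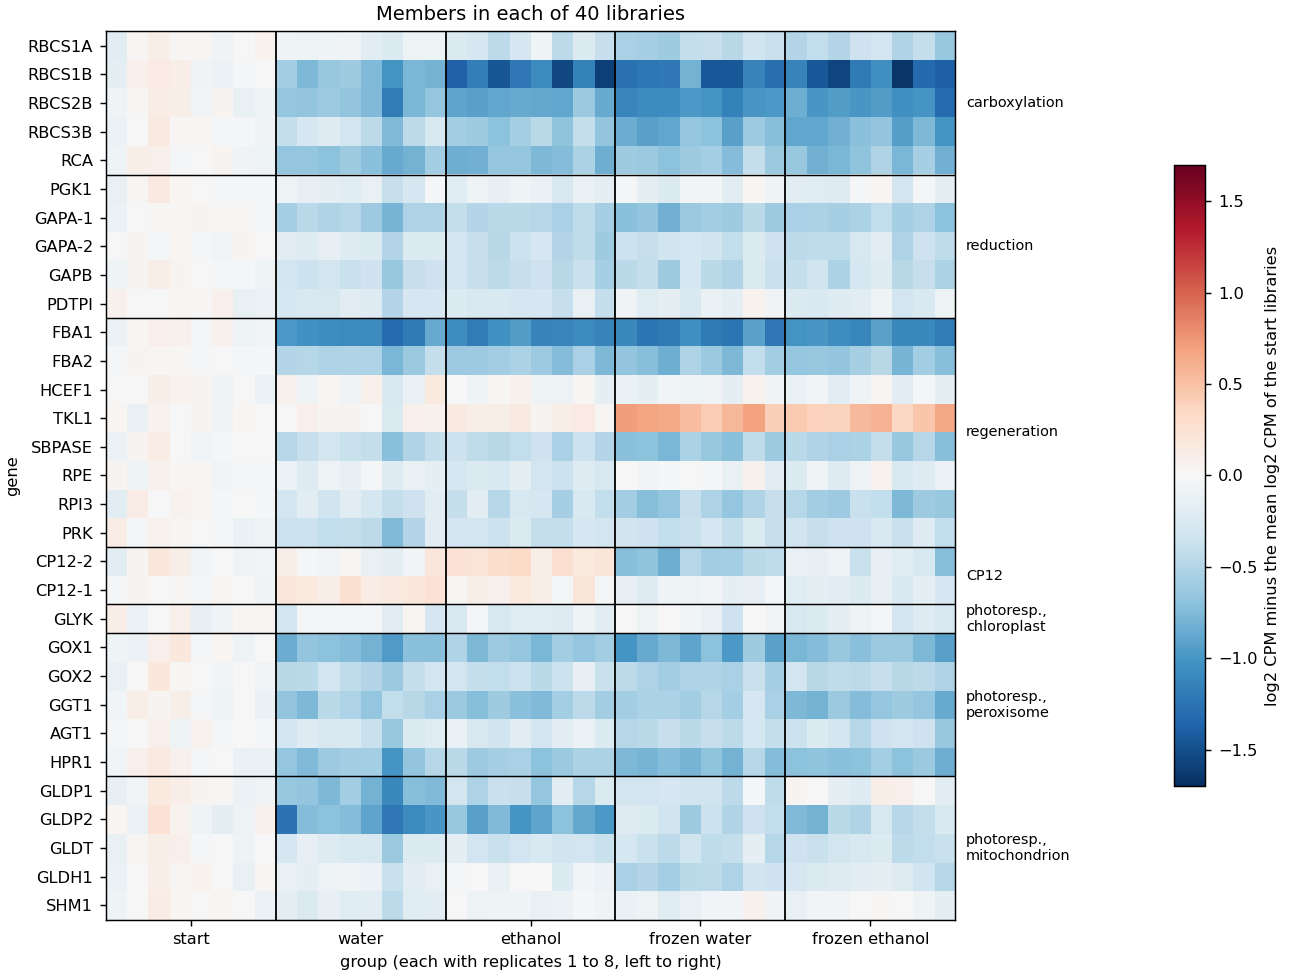
Heat map of log2 CPM of the 31 tested genes (rows, ordered by role) in each of the 40 libraries (columns, in blocks of 8 per group). The mean log2 CPM of the start libraries is subtracted from each gene, so colours show differences from the start group. The start block is the highest for most rows, and TKL1, CP12-2 and CP12-1 change between the unfrozen and frozen blocks.

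Together the 32 genes took 11.3% ± 0.362 (SD, n = 8 libraries) of all counts in the start group, 8.98% ± 0.490 in the water group, 8.37% ± 0.335 in the ethanol group, 8.23% ± 0.322 in the frozen water group and 8.28% ± 0.370 in the frozen ethanol group. The 4 small subunit genes alone held 7.94%, 6.44%, 5.75%, 5.49% and 5.50% of the counts in the same order. These are means over the libraries and descriptions, with no test.

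Between the start and the end of 6 days in water, most of these genes fell. Of the 31 tested, 25 were lower and 1 was higher, where 24.5% of all genes were called (12.0% higher and 12.5% lower). Their median log2 fold change was -0.39, against -0.01 over all genes tested. In 22 genes every water library lay below every start library, and in 1, CP12-1, every water library lay above; over all genes 8.56% were apart in this way (4.02% higher and 4.54% lower). This comparison cannot separate age, the standing water and any difference in harvest hour, and in bulk shoots fewer cells of a type and less RNA per cell cannot be told apart either. The summed root markers were lower over the same interval, and so were the 2 epidermis markers, at 210.3 to 271 CPM in start and 165 to 229.9 CPM in water; their part in the result was not tested; the mesophyll marker sums, at 21776 to 23838 CPM in start and 21333 to 28611 CPM in water, overlapped.

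Among the Rubisco genes the fall was unequal. RBCS1B (AT5G38430) had 6573 CPM at the lowest, 7246 at the median and 8045 at the highest in the start group, and 3627, 4330 and 4839 in the water group. All water libraries were thus below all start libraries, and the log2 fold change was -0.74 ± 0.078 (adjusted p = 2.72e-11). RBCS2B (AT5G38420) went from 7672, 8321 and 9200 CPM to 3686, 5281 and 5476, with the lowest of these in water replicate 6. Its log2 fold change was -0.74 ± 0.057 (adjusted p = 7.07e-16), again with the groups apart. RBCS3B (AT5G38410) fell by 0.39 ± 0.055 on the log2 scale. RBCS1A (AT1G67090), at 36253, 41686 and 44178 CPM before and 35130, 38874 and 39537 after, overlapped between the groups, and its -0.11 was not called. Within the summed counts of the 4 genes, the mean share of RBCS1A was 49.6% (48.1% to 51.6%) in start and 56.6% (54.5% to 60.6%) in water, and that of RBCS1B was 8.82% (8.36% to 9.36%) and 6.49% (6.02% to 6.99%). Neither pair of ranges overlapped. The coding sequences of RBCS1B and RBCS2B are 97.3% identical, those of RBCS1B and RBCS3B 94.1%, and that of RBCS1A is 87.7% to 90.1% identical to the others, so reads could be split among them; no source used here says how reads that match several genes were counted. RCA (AT2G39730) encodes Rubisco activase, which frees the active site from bound sugar phosphates. It had 5093, 5377 and 5757 CPM in start and 2971, 3373 and 3588 in water, a log2 fold change of -0.70 ± 0.050 (adjusted p = 5.76e-17).

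In the reduction steps all 5 genes fell. GAPA-1 (AT3G26650), which encodes an A subunit of chloroplast glyceraldehyde-3-phosphate dehydrogenase, changed by -0.56 ± 0.045 (adjusted p = 4.15e-15), its paralog GAPA-2 (AT1G12900) by -0.24 ± 0.048, and the B subunit gene GAPB (AT1G42970) by -0.39 ± 0.051. Triose phosphate isomerase (PDTPI, AT2G21170) changed by -0.29 ± 0.052 and phosphoglycerate kinase (PGK1, AT3G12780) by -0.18 ± 0.051. The PGK1 call was lost without water replicate 6 and ethanol replicate 7, at -0.13 (adjusted p = 0.0642), and also without start replicate 3 or water replicate 6 alone.

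Of the regeneration enzymes, FBA1 (AT2G21330) fell the most. It encodes a chloroplast fructose-bisphosphate aldolase and had 1719, 1836 and 1959 CPM in start against 741, 877 and 1015 in water. The groups were apart, with a log2 fold change of -1.07 ± 0.054 (adjusted p = 2.77e-23). Its paralog FBA2 (AT4G38970) changed by -0.54 ± 0.050. The share of FBA1 in the counts of this pair was 33.0% (31.8% to 34.0%) in start and 25.4% (24.8% to 26.4%) in water, with no overlap. SBPASE (AT3G55800), sedoheptulose-1,7-bisphosphatase, changed by -0.45 ± 0.053, phosphoribulokinase (PRK, AT1G32060), which makes the CO2 acceptor, by -0.42 ± 0.050, and the ribose-5-phosphate isomerase gene RPI3 (AT3G04790) by -0.29 ± 0.059. The ribulose-phosphate epimerase gene RPE (AT5G61410) changed by only -0.13 ± 0.047 (adjusted p = 0.0279), a call lost in 15 of 16 fits that each left out 1 library and without both libraries that stood apart (-0.10, adjusted p = 0.137). The chloroplast fructose-1,6-bisphosphatase gene HCEF1 (AT3G54050), at medians of 563 and 558 CPM, and the transketolase gene TKL1 (AT3G60750), at 672 and 687 CPM, were not called.

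CP12 proteins bind PRK and glyceraldehyde-3-phosphate dehydrogenase in an inactive complex in the dark. CP12-1 (AT2G47400) was the 1 gene of the 31 that rose, from 1935, 2030 and 2084 CPM to 2193, 2284 and 2419, a log2 fold change of 0.18 ± 0.039 (adjusted p = 0.000331) with the groups apart. CP12-2 (AT3G62410) had medians of 615 and 609 CPM in overlapping groups and was not called (-0.01).

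Photorespiratory genes of the peroxisome and the mitochondrion fell throughout. Glycolate oxidase makes glyoxylate and hydrogen peroxide from glycolate. Its gene GOX1 (AT3G14420) went from 1115, 1186 and 1352 CPM to 613, 723 and 752, a log2 fold change of -0.77 ± 0.055 (adjusted p = 5.93e-17), and GOX2 (AT3G14415), which lies next to it on chromosome 3 and is 90.9% identical in coding sequence, changed by -0.44 ± 0.050. Hydroxypyruvate reductase (HPR1, AT1G68010) changed by -0.66 ± 0.056, and the aminotransferases GGT1 (AT1G23310) and AGT1 (AT2G13360), which make glycine and use serine in the peroxisome, by -0.56 ± 0.054 and -0.31 ± 0.053. The groups of all 5 peroxisomal genes were apart. In the glycine decarboxylase complex the P protein genes fell most: GLDP1 (AT4G33010) from 588, 641 and 728 CPM to 304, 388 and 429, a log2 fold change of -0.75 ± 0.066, and GLDP2 (AT2G26080) from 154, 170 and 203.04 CPM to 71.7, 89.4 and 106, a log2 fold change of -0.94 ± 0.082 (adjusted p = 5.23e-14). The T protein gene GLDT (AT1G11860) changed by -0.28 ± 0.053 and SHM1 (AT4G37930), the serine hydroxymethyltransferase that works beside the complex, by -0.22 ± 0.044. The H protein gene GLDH1 (AT2G35370) was called at -0.15 ± 0.050 (adjusted p = 0.0207), but not in 11 of 16 fits that left out 1 library and not without both libraries that stood apart (-0.10, adjusted p = 0.150). Glycerate kinase (GLYK, AT1G80380), the last step, back in the chloroplast, was not called (-0.10). PGLP1 (AT5G36700), the first step, had 15 counts over all 40 libraries, of which 12 were in the frozen ethanol group. The coding sequence of AT5G36790 is identical to it over 1089 of 1089 bases, and that locus had 3 to 267 counts per library. The 2 loci therefore cannot be told apart by coding sequence. AT5G36790 was tested, and with the length trend removed it was called lower from start to water.

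**Figure D2:**
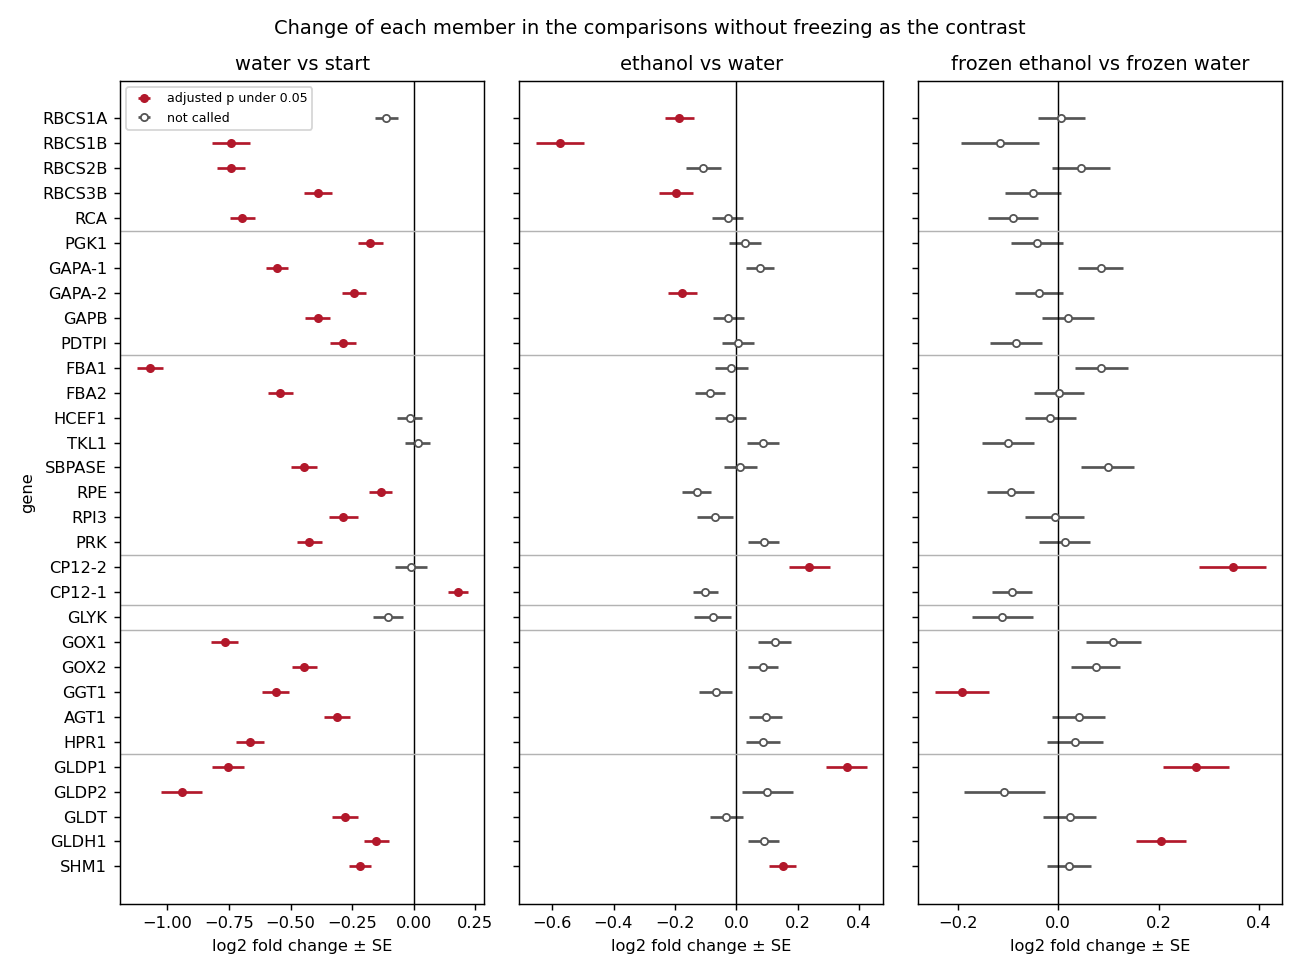
Log2 fold change ± SE of each of the 31 genes in water against start, ethanol against water and frozen ethanol against frozen water, ordered by role, with filled points for an edgeR adjusted p under 0.05. In the first panel 25 genes lie below 0 and are called, and in the other panels most genes lie near 0.

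After the 6 days in ethanol 7 of the 31 genes were called relative to the 6 days in water. Of 31, 3 were higher and 4 lower, where 10.0% of all genes were called (4.04% higher and 6.00% lower), and the median log2 fold change was -0.02 against 0.01 over all genes. Small subunit genes made up 3 of the 4 that were lower, and the genes that were higher were CP12-2, GLDP1 and SHM1. The groups were apart for RBCS1B and SHM1, against 1.75% of all genes (0.585% higher and 1.16% lower). The phloem marker SUC2 and the flower markers were at 105 to 134 and 2.93 to 6.43 CPM in ethanol and at 93.2 to 112 and 0.742 to 3.86 CPM in water; their part in the result was not tested.

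RBCS1B had 3627, 4330 and 4839 CPM (lowest, median and highest library) in water and 2433, 2978 and 3452 in ethanol. Every ethanol library lay below every water library, and the log2 fold change was -0.58 ± 0.078 (adjusted p = 4.74e-07). RBCS1A, at 35130, 38874 and 39537 CPM in water and 30341, 33806 and 39223 in ethanol, overlapped and changed by -0.19 ± 0.047 (adjusted p = 0.00493). RBCS3B changed by -0.20 ± 0.055 (adjusted p = 0.0133). RBCS2B was not called over all libraries but was lower without water replicate 6 and ethanol replicate 7 (-0.20, adjusted p = 0.00379). The share of RBCS1B in the counts of the 4 genes was 5.01% (4.44% to 5.53%) in ethanol, wholly below the 6.02% to 6.99% in water.

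GAPA-2 was the fourth gene that was lower, by -0.18 ± 0.048 (adjusted p = 0.00987). GAPA-1 was not called, and its share in the counts of the GAPA pair was 56.9% (54.4% to 58.5%) in ethanol against 52.5% (51.2% to 53.8%) in water, with no overlap. CP12-2 rose, with 556, 609 and 712 CPM in water and 671, 733 and 786 in ethanol, a log2 fold change of 0.24 ± 0.066 (adjusted p = 0.0125). CP12-1 was not called over all libraries, and without the 2 libraries that stood apart it was lower (-0.13, adjusted p = 0.0466); its share of the pair was 74.4% (72.6% to 76.9%) in ethanol and 78.7% (77.1% to 80.2%) in water, again with no overlap. GLDP1 rose, with 304, 388 and 429 CPM in water and 411, 497 and 565 in ethanol, overlapping at the edge, and a log2 fold change of 0.36 ± 0.066 (adjusted p = 7.59e-05). GLDP2, with medians of 89.4 and 93.4 CPM, was not called. SHM1 rose by 0.15 ± 0.044 (adjusted p = 0.0179), but without water replicate 6 and ethanol replicate 7 it was not called (0.11, adjusted p = 0.113), nor without water replicate 6 or ethanol replicate 1 alone (0.12 and 0.14). Without both water replicate 6 and ethanol replicate 7, 9 of the 31 genes were called, 2 higher and 7 lower. Over all genes that fit called 1691, 671 higher and 1020 lower. RPE joined the lower ones of the 31 at -0.15 (adjusted p = 0.0475).

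**Figure D3:**
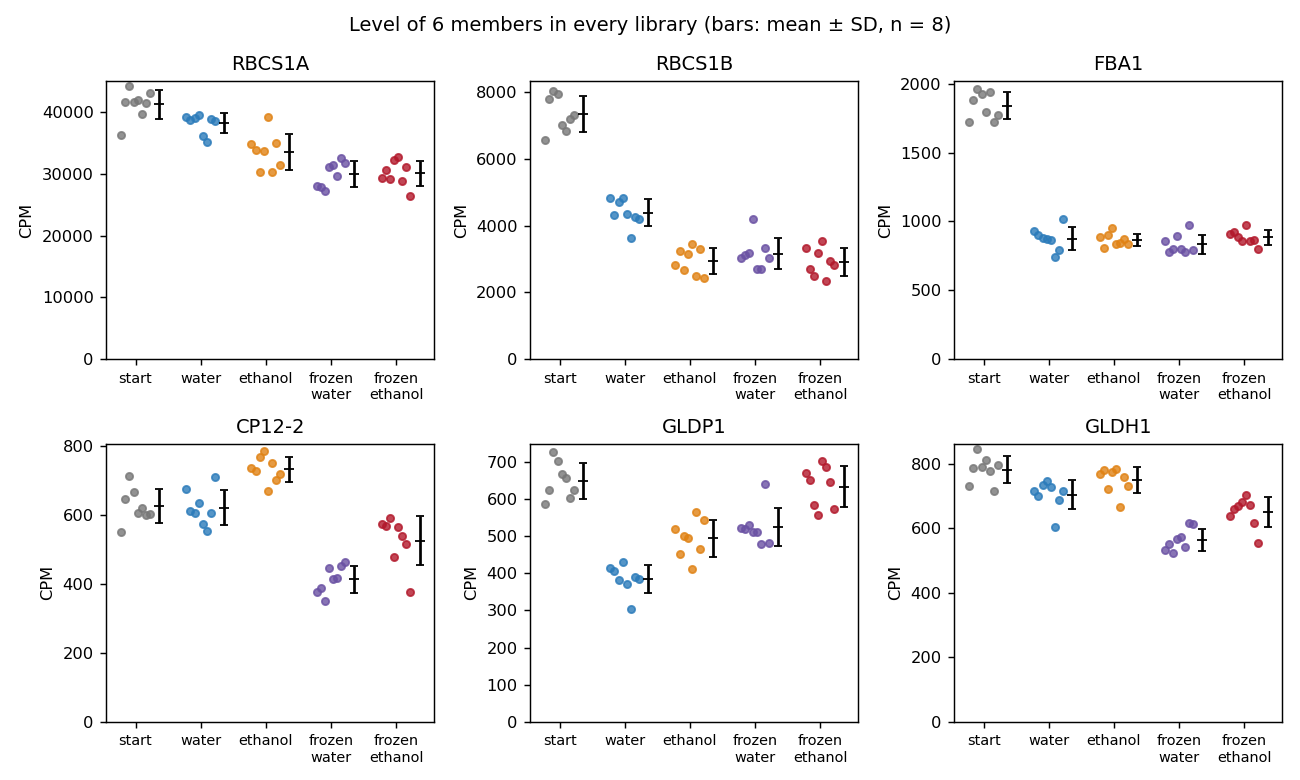
CPM of RBCS1A, RBCS1B, FBA1, CP12-2, GLDP1 and GLDH1 in every library by group, each point a library, with the mean and SD of the 8. FBA1 falls between start and water and exceeds 1015 CPM in no later library, whereas CP12-2 is lower in the frozen groups and GLDP1 is lowest in water.

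**Figure D4:**
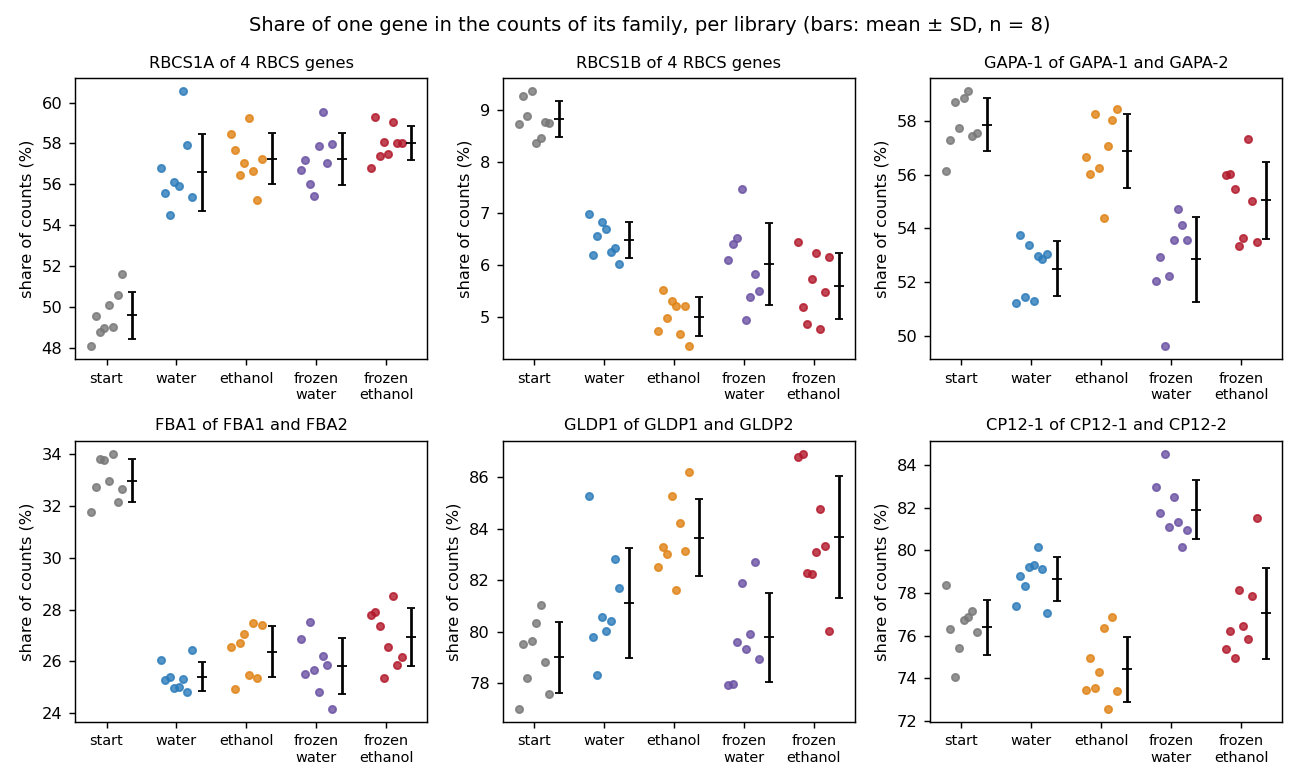
Share of counts (percent) within paralog groups, each point a library, by group: RBCS1A and RBCS1B among the 4 RBCS genes, and GAPA-1, FBA1, GLDP1 and CP12-1 within their pairs. The shares are of counts and not corrected for transcript length; RBCS1B, GAPA-1 and CP12-1 do not overlap between water and ethanol.

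Between water and frozen water 14 of the 31 genes changed, 5 higher and 9 lower, where 14.0% of all genes were called (7.00% higher and 6.96% lower). Between ethanol and frozen ethanol 10 changed, 3 higher and 7 lower, against 9.78% of all genes (4.10% higher and 5.68% lower). The labels do not say whether the unfrozen controls had a matching night, rotation, light or hour of harvest, so the cold cannot be told apart from these, and freezing names the comparison only. The median log2 fold changes were -0.07 and -0.03, against 0.00 and 0.01 over all genes. TKL1, GLDP1 and GLDP2 were higher in both comparisons, and RBCS1A, RBCS3B, RPI3, CP12-2, CP12-1 and GLDH1 were lower in both; 16 genes were called in neither. These calls followed transcript length: ranked against the length of their transcripts, the log2 fold changes of the 31 genes had a Spearman correlation of 0.62 in the water pair and 0.61 in the ethanol pair, and those of 16417 genes one of 0.60 and 0.51. The points share the libraries, and the values are descriptions. With the length trend removed from each library, 6 genes were called after water, 2 higher and 4 lower (against 1.84% of all genes, 0.439% higher and 1.40% lower), and 4 after ethanol, 1 higher and 3 lower (against 4.19%, 1.47% higher and 2.72% lower). The mesophyll marker sum was 17327 to 21677 CPM in frozen water and 15768 to 20448 CPM in frozen ethanol, against 21333 to 28611 CPM in water and 22797 to 26093 CPM in ethanol. The epidermis marker sum was 222.4 to 297.5 CPM in frozen water and 215.6 to 276.1 CPM in frozen ethanol, against 165 to 229.9 CPM in water and 185.5 to 234.8 CPM in ethanol. The part of these markers in the result was not tested.

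**Figure D5:**
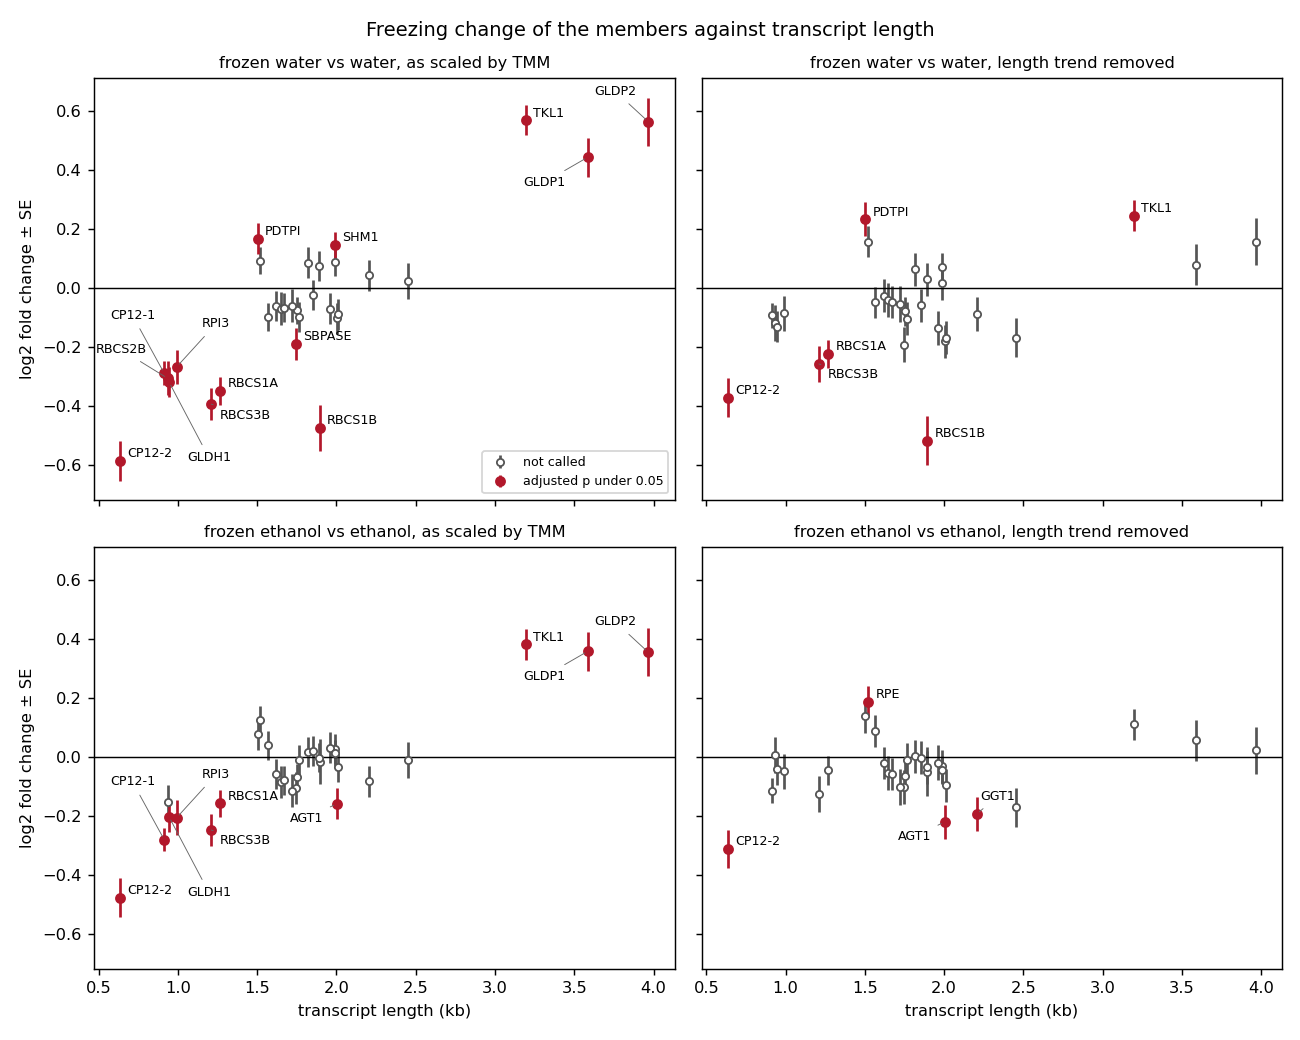
Log2 fold change ± SE of the 31 genes on freezing after water (top) and after ethanol (bottom) against the length of the longest annotated transcript in kb, as scaled by TMM (left) and after removal of each library's length trend (right). On the left short transcripts lie below 0 and the 3 longest above; on the right CP12-2 stays called below 0 in both rows.

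CP12-2 showed the change that held under each of these settings in both comparisons. It had 556, 609 and 712 CPM in water and 351, 417 and 464 in frozen water, and 671, 733 and 786 in ethanol and 377, 553 and 591 in frozen ethanol. The frozen libraries lay below the unfrozen ones in both, with log2 fold changes of -0.59 ± 0.067 (adjusted p = 8.53e-09) and -0.48 ± 0.066 (adjusted p = 6.21e-07). Its annotated transcript, of 637 bases, is the shortest of the 32. With the length trend removed the changes were -0.37 (adjusted p = 0.000288) and -0.31 (adjusted p = 0.00132). CP12-1, with a transcript of 913 bases, had 2193, 2284 and 2419 CPM in water and 1745, 1877 and 1976 in frozen water, a log2 fold change of -0.29 ± 0.040 (adjusted p = 5.78e-07). After ethanol it went from 1987, 2150 and 2333 CPM to 1667, 1764 and 1838, a log2 fold change of -0.28 ± 0.040 (adjusted p = 8.5e-07). The groups were apart in both, as for 1.94% of all genes after water (0.983% higher and 0.953% lower) and 2.14% after ethanol (0.627% higher and 1.51% lower), but with the trend removed the values were -0.09 and -0.12 and neither was called. Taken on the shortest annotated transcript of each gene instead of the longest, the removal left CP12-1 called after ethanol (-0.14) and not after water.

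The small subunit genes were lower after freezing in water. RBCS1A had 35130, 38874 and 39537 CPM in water and 27196, 30419 and 32588 in frozen water, with no overlap and a log2 fold change of -0.35 ± 0.047 (adjusted p = 4.15e-07). RBCS1B changed by -0.48 ± 0.078, RBCS2B by -0.31 ± 0.057 and RBCS3B by -0.39 ± 0.055. With the length trend removed RBCS1A (-0.22, adjusted p = 0.00372) and RBCS3B (-0.26, adjusted p = 0.00891) stayed called and RBCS2B (-0.12) did not. RBCS1B stayed called with its longest annotated transcript of 1894 bases (-0.52, adjusted p = 7e-05), but not with its shortest, of 840 bases (-0.29, adjusted p = 0.0505). After ethanol RBCS1A changed by -0.16 ± 0.047 (adjusted p = 0.0211) and RBCS3B by -0.25 ± 0.055 (adjusted p = 0.00163), and neither was called with the trend removed (-0.05 and -0.13). The RBCS1A call after ethanol was also lost without ethanol replicate 5 or frozen ethanol replicate 8 (-0.12 and -0.13). RBCS1B, with medians of 2978 CPM in ethanol and 2871 CPM in frozen ethanol, was not called there, and RBCS2B was called there only without frozen ethanol replicate 1 (-0.18). RCA was called in neither freezing comparison, with medians of 3373 and 3516 CPM in water and frozen water and changes of 0.09 after water and 0.03 after ethanol (0.02 and -0.03 with the trend removed).

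TKL1 rose on freezing. It encodes transketolase, which moves carbon units between sugar phosphates, and its transcript has 3196 bases. It had 559, 687 and 704 CPM in water and 881, 1013 and 1091 in frozen water, with no overlap and a log2 fold change of 0.57 ± 0.052 (adjusted p = 1.54e-11). In ethanol it had 674, 716 and 738 CPM, and in frozen ethanol 847, 912 and 1048, a log2 fold change of 0.38 ± 0.051 (adjusted p = 3.15e-07). With the length trend removed it stayed called after water (0.24, adjusted p = 0.00421) and not after ethanol (0.11). Of the other Calvin cycle enzymes, PDTPI was called higher after water, by 0.17 ± 0.052 (adjusted p = 0.0228), and also with the trend removed (0.23, adjusted p = 0.0167); the first of these calls was lost without both libraries that stood apart (0.13, adjusted p = 0.0888) and in 6 fits that left out frozen water replicate 1, 3, 7 or 8 or water replicate 6 or 7. RPI3, with a transcript of 992 bases, changed by -0.27 ± 0.059 after water and -0.21 ± 0.059 after ethanol, and SBPASE by -0.19 ± 0.053 after water; none of these was called with the trend removed by the longest transcript (-0.09, -0.05 and -0.19), while SBPASE was with the shortest. RPE was called after ethanol only with the trend removed (0.19, adjusted p = 0.0242). FBA1, FBA2, PRK, GAPA-1, GAPB, PGK1 and HCEF1 were not called on freezing under any of these 3 settings.

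As scaled by TMM, 3 genes of the glycine decarboxylase complex were called on freezing in both comparisons, SHM1 only after water and the peroxisomal AGT1 only after ethanol. GLDP1, with a transcript of 3586 bases, rose from 304, 388 and 429 CPM in water to 478, 515 and 641 in frozen water, with no overlap and a log2 fold change of 0.44 ± 0.066 (adjusted p = 2.88e-06), and by 0.36 ± 0.066 after ethanol (adjusted p = 0.000105). GLDP2, with 3967 bases, rose from 71.7, 89.4 and 106 CPM to 113, 134 and 148 after water, a log2 fold change of 0.56 ± 0.082 (adjusted p = 2.04e-06), and by 0.35 ± 0.081 after ethanol (adjusted p = 0.00231). GLDH1, with 944 bases, moved the other way. It had 603, 716 and 746 CPM in water and 522, 559 and 615 in frozen water, changing by -0.32 ± 0.051 (adjusted p = 9.07e-06), and by -0.20 ± 0.050 after ethanol (adjusted p = 0.00481). With the length trend removed none of the 3 was called in either comparison: GLDP1 had 0.08 and 0.06, GLDP2 0.16 and 0.02, and GLDH1 -0.13 and -0.04. SHM1 was called after water at 0.14 ± 0.044 (adjusted p = 0.0196), and not with the trend removed (0.07) or without the 2 libraries that stood apart (0.10, adjusted p = 0.102), nor in 5 fits that left out frozen water replicate 2, 5 or 7 or water replicate 2 or 6. AGT1 was called after ethanol at -0.16 ± 0.053 (adjusted p = 0.0448) and with the trend removed (-0.22, adjusted p = 0.0139, though not with the shortest transcripts), but in 11 of 16 fits that left out 1 library it was not. Nor was it called after ethanol without both libraries that stood apart (-0.14, adjusted p = 0.0578). GGT1 was called after ethanol only with the trend removed (-0.19, adjusted p = 0.0374), and GOX1, GOX2 and HPR1 were called in neither freezing comparison under any of the 3 settings. Without both libraries that stood apart, and without water replicate 6 alone, GAPA-2 (-0.14), AGT1 (-0.16) and GLDT (-0.14) were also lower after freezing in water.

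Between the 2 frozen groups, 3 genes were higher after ethanol and 1 was lower, where 5.25% of all genes were called (2.41% higher and 2.83% lower); the medians were 0.01 and -0.01. CP12-2 had 351, 417 and 464 CPM in frozen water and 377, 553 and 591 in frozen ethanol, which overlap, and a log2 fold change of 0.35 ± 0.066 (adjusted p = 0.000493). GLDP1 had 478, 515 and 641 CPM and 557, 649 and 701 CPM, a log2 fold change of 0.27 ± 0.065 (adjusted p = 0.00659). GLDH1 had 522, 559 and 615 CPM and 556, 665 and 704 CPM, a log2 fold change of 0.20 ± 0.051 (adjusted p = 0.00855). CP12-2 and GLDP1 were thus higher with ethanol in both the unfrozen and the frozen plants, with log2 fold changes of 0.24 and 0.35 for CP12-2 and 0.36 and 0.27 for GLDP1. These 2 comparisons share no library, but they were fitted in the same model with a shared estimate of the spread. GGT1 was the gene that was lower, with 632, 651 and 784 CPM in frozen water and 528, 589 and 625 in frozen ethanol, which do not overlap (0.651% of all genes were apart, 0.277% higher and 0.374% lower), and a log2 fold change of -0.19 ± 0.054 (adjusted p = 0.0226). With the length trend removed, where 5.20% of all genes were called (2.05% higher and 3.15% lower), all 4 stayed called, at 0.32, 0.30, 0.17 and -0.19, except that with the shortest transcripts GGT1 missed the threshold (adjusted p = 0.0508). The GGT1 call was also lost in each of 4 fits that left out frozen ethanol replicate 1, 2 or 8 or frozen water replicate 7 (-0.18 to -0.15).

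Whether the freezing changes differed after ethanol and after water was tested as the difference of the 2 freezing changes. The edgeR test called none of the 31 genes, where it called 0.133% of all genes (0.00603% higher and 0.127% lower); 5 of the 31 had an unadjusted p under 0.05, and DESeq2 called 1. That gene was RBCS1B, which changed by -0.48 ± 0.078 on freezing after water and by -0.02 ± 0.078 on freezing after ethanol. The difference was 0.46 ± 0.11, with an adjusted p of 0.0604 in edgeR and 0.0322 in DESeq2, and it was called in edgeR with no filter (adjusted p = 0.0345). Without water replicate 6 and ethanol replicate 7 it was 0.53 (adjusted p = 0.0113), and it was also called in 5 fits that left out ethanol replicate 5, frozen ethanol replicate 3 or 6, frozen water replicate 4 or water replicate 6 (0.50 to 0.54). Frozen water replicate 4 held the highest RBCS1B level of its group, 4191 CPM. The 4 others with an unadjusted p under 0.05 were RBCS1A (0.19), GAPA-2 (0.14), TKL1 (-0.19) and SHM1 (-0.13). Over the 31 genes the difference went with transcript length as well (Spearman correlation -0.61), and less so over 16417 genes (-0.16). After removal of the length trend the difference was 0.47 for RBCS1B (adjusted p = 0.0844), 0.18 for RBCS1A, 0.14 for GAPA-2, -0.13 for TKL1 and -0.11 for SHM1, and none was called. With the replicate number as a block, edgeR called RBCS1B without the length correction (0.46, adjusted p = 0.00783) and with it (0.47, adjusted p = 0.00839). The labels do not say that these numbers pair libraries. Every freezing comparison shares its unfrozen control libraries with the ethanol comparison, so RBCS1B, lower in ethanol than in water, enters both.

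A further 37 genes of the same pathways, for the remaining enzymes, Rubisco assembly, redox regulation and the transport and nitrogen steps of photorespiration, were counted, of which 36 were tested. From start to water 5 were higher and 21 lower, where 24.5% of all genes were called (12.0% higher and 12.5% lower). RbcX1, a Rubisco assembly chaperone, rose from 15.1, 19.8 and 28.2 CPM to 117, 141 and 157, a log2 fold change of 2.84 ± 0.085 (adjusted p = 7.43e-33). CAT2, the leaf catalase that removes the hydrogen peroxide of glycolate oxidase, fell from 879, 953 and 1107 CPM to 244, 286 and 303, a log2 fold change of -1.80 ± 0.073 (adjusted p = 3.59e-27), and BOU, a mitochondrial carrier, changed by -0.89 ± 0.073. For both RbcX1 and CAT2 the groups were apart. In ethanol against water 2 were higher and 6 lower, where 10.0% of all genes were called, led by the chloroplast dicarboxylate transporters DiT1 (-0.46 ± 0.069) and DIT2.1 (-0.35 ± 0.067) and the chaperonin gene CPN20 (-0.27 ± 0.056).

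On freezing after water 7 of these genes were higher and 8 lower, where 14.0% of all genes were called, and after ethanol 5 and 6, where 9.78% were. Once the length trend was removed, 1 of the 35 with a known length (GLU1) was higher and none lower after water, where 1.84% of all genes were called. After ethanol 1 was higher (CPN60A) and 2 lower (TRXF2 and PMDH2), where 4.19% were; genes in these brackets are named after their values were seen. GLU1, the ferredoxin-dependent glutamate synthase of the nitrogen steps of photorespiration, rose by 1.00 ± 0.068 after water (adjusted p = 5.33e-16) and by 0.54 ± 0.067 after ethanol (adjusted p = 5.18e-08). Its transcript has 5417 bases, and with the length trend removed the values were 0.50 and 0.13. After water AT1G32470, a glycine decarboxylase H protein gene, changed by -0.30 ± 0.054 and the thioredoxin gene TRXF1 by -0.28 ± 0.052, both -0.09 with the trend removed. After ethanol TRXF1 changed by -0.32 ± 0.052 and TRXF2 by -0.36 ± 0.063, at -0.16 and -0.23 with the trend removed. The GLU1 change differed between the freezing comparisons, by -0.47 ± 0.095 (adjusted p = 0.0153), but not with the length trend removed (-0.37, adjusted p = 0.167). Next in order of p for that difference were AT2G35120 (0.41) and CPN20 (0.22), and neither was called. Between the frozen groups 4 genes were lower with ethanol, where 5.25% of all genes were called, and 5 with the length trend removed (5.20% called), among them DiT1 (-0.38 ± 0.068), the plastid glutamine synthetase gene GLN2 (-0.24 ± 0.054) and GLU1 (-0.28 ± 0.066).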

How the data were processed

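RNA from shoots was sequenced by Lasy-Seq in 40 libraries, 8 in each of 5 groups taken from the treatment labels. The submitters' processing notes list bcl2fastq and Trimmomatic, the aligner HISAT2, the counter featureCounts, DESeq2, and TAIR10 as the build; no source used here gives their versions or the strand and multi-mapping settings. The authors deposited a table of raw read counts for 27416 genes, which was tested here, and a table of normalized signal, which equals the deposited counts divided by median-ratio size factors to within a relative deviation of 5.95e-10 and was not used for tests. Of the genes, 2296 had no count. Depth was 2098593 to 9211896 counts per library, and floors stated from counts cover counting error only.

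Counts were scaled by TMM, filtered with filterByExpr, and fitted with edgeR 4.0.16 (R 4.3.3) in 1 quasi-likelihood model with a mean per group over all 40 libraries. There were 6 comparisons, each with Benjamini-Hochberg adjustment over 16579 genes and a threshold of 0.05. The SE was taken from the F statistic. A transcript length trend was removed from each library with a natural spline of 4 degrees of freedom in log2 length (longest annotated RefSeq transcript, 16417 genes with a length). Because RBCS1B has transcripts of very different length, a removal based on the shortest transcript was added after seeing the data. The other alternatives were DESeq2 1.42.0, its size factors in edgeR, no filter, only the groups compared, organelle genes left out, the replicate number as a block, each library left out, and a joint omission of water replicate 6 with ethanol replicate 7. The fits were tested on simulated data. Promoter windows were read from TAIR10.1 with Biopython 1.88, and paralogs were aligned over their coding sequences.

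All 32 genes are named by rule. Of the 37 further pathway genes, the 3 with the smallest p in each comparison are named, and AT5G36790 is named for its identity with PGLP1. The genes, the lists, the length correction and the 2 libraries that stand apart were chosen with earlier results of these data known. Shares within paralog groups are sums of raw counts with no test. The labels do not say that replicate numbers pair libraries, so the numbers were not treated as pairs in the main fit. The deviations of same-numbered libraries had correlations of -0.0623 to 0.325. In each of the 2 freezing comparisons 1 of 8 such pairs was over 0.1.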

Additional observations from a re-analysis of the deposited data

Results flagged for a closer look

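For each of the 31 genes in each of the 5 groups, the gap of the highest and the lowest of the 8 libraries to its neighbour was set against the range of the group (Dixon's 95% critical value). Of these sets 13.5% passed it, where chance gives about 1 in 20. The values are CPM. Water replicate 6 was the low library for 10 genes: RBCS2B (3686), GAPA-2 (1572), GAPB (1136), PDTPI (332), TKL1 (559), AGT1 (685), GLDP1 (304), GLDT (599), GLDH1 (603) and SHM1 (902). Frozen water replicate 7 was the high library for 5: RCA (4077), GGT1 (784), AGT1 (873), HPR1 (528) and GLDP1 (641). Ethanol replicate 7 was high for RBCS2B (5407) and GOX2 (577), and start replicate 3 for RBCS3B (29139) and GOX2 (723). Frozen water replicate 4 was high for RBCS1B (4191), and frozen water replicate 6 was low for GLYK (122). Of the 21 flags, 12 lie in the libraries left out together above.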

How the results depend on the processing

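Removing the length trend cut the genes called on freezing after water from 14 to 6 (7 with the replicate block as well, 6 with shortest transcripts) and over all genes from 2315 to 302 (72 higher and 230 lower; 304 and 301 in the other fits). After ethanol it cut the 31 genes' calls from 10 to 4 in each of these fits, and over all genes to 688, 759 and 649. The difference of the freezing changes called 22 genes over all, but 46 with DESeq2, 41 with no filter, 36 with the replicate block, 37 with the block and the length correction and 42 without water replicate 6 and ethanol replicate 7; in each of these fits 1 of the 31 genes, RBCS1B, was called. The cause was not tested. The replicate block changed no other call of the 31 genes without the length correction. The edgeR fits of only the groups compared lost RPE from start to water (adjusted p = 0.0585) and SHM1 in ethanol against water (adjusted p = 0.0544). On freezing they lost SHM1 after water (adjusted p = 0.0527), and RBCS1A (adjusted p = 0.0789) and AGT1 (adjusted p = 0.106) after ethanol. Between the frozen groups they lost GGT1 (adjusted p = 0.0604). GLDP2 on freezing after ethanol turned from 0.35 to -0.0066 with shortest transcripts (adjusted p = 0.984). Values near 0, called in neither fit, changed sign in each comparison in 26, 16, 13, 51, 30 and 38 cases over all alternatives.

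Leaving out 1 library at a time gave 23 to 26 of the 31 genes from start to water, 6 to 8 in ethanol against water, 12 to 15 on freezing after water, 8 to 10 after ethanol, 3 to 4 between the frozen groups and 0 to 1 for the difference. Over all genes the ranges were 3749 to 3993, 1407 to 1703, 2026 to 2324, 1265 to 1651, 556 to 1089 and 11 to 61. The 556 came without frozen ethanol replicate 2 (576 without replicate 6 of that group), and the 61 without water replicate 6. Same-numbered libraries correlated best with their own number in 2 of 8 pairs from start to water and 4 of 8 in ethanol against water. On freezing it was 2 of 8 after water and 1 of 8 after ethanol, and between the frozen groups 0 of 8. A random match would give about 1 of 8.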
